A study of Mus musculus with 6 samples.

Results

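Alveolar type 1 cell genes were followed in whole mouse lungs through 10 members, Ager, Aqp5, Hopx, Pdpn, Rtkn2, Akap5, Emp2, Clic5, Gprc5a and Sema3e. The members were named as a list of type 1 cell genes and were found by gene symbol among 28440 probe sets, keeping the brightest probe set of a gene. Each of the 10 had 1 probe set, none marked for cross-hybridisation, and all 10 were among the 21330 probe sets tested. Lungs came from 6 C57BL/6 mice, aged 8 weeks, that received 100 uL of medium into the peritoneum daily for 7 days. Control mice (replicates 2 and 4) received plain RPMI culture medium, PC3 mice (replicates 4 and 5) medium conditioned by PC3 human prostate cancer cells, and LN4 mice (replicates 1 and 3) medium conditioned by PC3M-LN4, a derivative of PC3 with higher metastatic ability. Every mouse gave 1 array, and with 2 arrays a group their number limits the precision.

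Type 1 cells are the very thin squamous cells that cover most of the gas-exchange surface of the lung, share a basement membrane with the capillaries and are renewed from type 2 cells. Their genes encode membrane receptors, water and ion transport proteins, cytoskeletal adaptors and secreted guidance factors. In bulk lung, fewer cells of a type and less RNA per cell cannot be told apart. In the annotation that the authors' table carries, 9 of the 10 members had a cellular component term for membrane and 6 had plasma membrane. Hopx, a homeodomain protein annotated to nucleus and cytoplasm, was the exception.

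Values are log2 RMA values, a log scale on which a difference of 1 is a doubling. Every member lay at least 1.47 above the 95th percentile of the negative control probe sets on all 6 arrays. That percentile lay between 7.37 and 7.69, and the lowest member value was 8.84, for Sema3e in LN4 replicate 3. Detection in whole lung does not check that the members mark type 1 cells. The arrays fell into a low- and a high-detection array in every group, with 35.4% to 39.8% of exon-level probe sets detected in Control replicate 2, PC3 replicate 4 and LN4 replicate 1 and 46.1% to 50.9% in the other three. LN4 replicate 3 stood apart: all 9 tested squamous epithelium genes and all 8 skeletal muscle genes were highest there. The mean level of the squamous list was 10.69 on that array, 7.03 in PC3 replicate 4 and between 4.92 and 5.15 on the other arrays. The members' differences named below that involve LN4 lungs are therefore also given without that array.

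Upstream sequences are shown for 4 members: Ager, the member most specific to type 1 cells, Akap5 and Sema3e, which were lowest relative to the other lungs in LN4 replicate 3, and Emp2, which differed most between PC3 and Control lungs. RefSeq windows (GRCm38.p6) existed for 8 of the 10 members, 9 windows in all, and each is given as the 250 bases before the start of transcription, 5′ to 3′ on the gene's strand. The windows are chr17:34597600-34597849 on the plus strand for Ager, chr12:76324641-76324890 on the plus strand for Akap5, chr5:14025026-14025275 on the plus strand for Sema3e and chr16:10313969-10314218 on the minus strand for Emp2. Capitals mark matches to the GC box, a motif bound by SP and KLF family proteins.
Ager: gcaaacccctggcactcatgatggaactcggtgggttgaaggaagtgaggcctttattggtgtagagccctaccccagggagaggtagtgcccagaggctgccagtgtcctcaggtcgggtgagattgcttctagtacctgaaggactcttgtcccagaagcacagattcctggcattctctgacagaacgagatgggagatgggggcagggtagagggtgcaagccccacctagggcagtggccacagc
Akap5: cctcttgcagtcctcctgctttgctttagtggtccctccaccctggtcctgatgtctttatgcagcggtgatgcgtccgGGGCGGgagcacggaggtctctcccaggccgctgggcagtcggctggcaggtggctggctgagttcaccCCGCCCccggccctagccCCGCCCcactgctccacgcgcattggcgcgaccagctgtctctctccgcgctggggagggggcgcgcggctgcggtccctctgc
Sema3e: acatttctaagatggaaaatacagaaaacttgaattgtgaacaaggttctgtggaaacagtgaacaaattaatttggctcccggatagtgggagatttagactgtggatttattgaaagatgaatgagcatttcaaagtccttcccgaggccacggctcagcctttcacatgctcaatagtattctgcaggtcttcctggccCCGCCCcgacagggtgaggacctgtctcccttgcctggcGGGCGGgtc
Emp2: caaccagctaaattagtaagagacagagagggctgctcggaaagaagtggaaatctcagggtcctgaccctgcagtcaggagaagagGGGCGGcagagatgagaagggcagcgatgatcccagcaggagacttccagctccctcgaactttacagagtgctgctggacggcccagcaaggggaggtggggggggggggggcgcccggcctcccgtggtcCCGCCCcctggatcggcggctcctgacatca

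Of the 9 windows, 5 held the GC box GGGCGG on either strand, against 32.7% of 32851 windows of the same length. Akap5 held 3 matches, while Aqp5, Clic5, Emp2 and Sema3e each held 2 and Ager held 0. The GC content of the windows ran from 43.2% for Pdpn to 78.4% for Aqp5, with a median of 57.6% against 52.4% over all windows. The core motif CATTCC of the TEAD factors was found in 0 of the 9 windows on either strand, against 12.6% of all windows, and the NKX2 core CAAGTG in 0 against 11.6%. The GC box was thus the only motif matched, and a match is a description of the letters only.

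Ager encodes RAGE, a membrane receptor that is abundant on the basal side of type 1 cells. Its values were 12.65 and 12.69 in Control lungs, 12.82 and 12.68 in PC3 lungs and 12.74 and 12.39 in LN4 lungs (replicates in rising order of number, here and below). LN4 replicate 3 was the low lung, and the other 5 arrays spanned a range of 0.17. Aqp5, a water channel of the apical membrane, read 10.52 and 10.44 in Control, 10.63 and 10.48 in PC3 and 10.60 and 10.06 in LN4 lungs. LN4 replicate 3 was again the low lung, with the other 5 arrays within 0.19. Pdpn, the membrane glycoprotein podoplanin, read 10.17 and 10.33 in Control, 10.53 and 10.28 in PC3 and 10.36 and 9.95 in LN4 lungs. Its groups overlapped in all 3 comparisons, and LN4 replicate 3 was lowest.

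Clic5, a chloride intracellular channel family protein linked to the actin cytoskeleton, read 11.26 and 11.55 in Control, 11.63 and 11.65 in PC3 and 11.39 and 11.20 in LN4 lungs. Both PC3 lungs lay above the other 4 arrays. Emp2, a tetraspan epithelial membrane protein, read 11.50 and 11.78 in Control, 12.08 and 11.99 in PC3 and 11.53 and 11.73 in LN4 lungs. The PC3 lungs were again both above the other 4, and the LN4 and Control lungs interleaved. Gprc5a, an orphan G protein-coupled receptor induced by retinoic acid, read 10.81 and 11.21 in Control, 11.09 and 11.52 in PC3 and 10.90 and 10.65 in LN4 lungs. It had the widest range of the members over the 6 arrays, 0.87.

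Among the intracellular members, Akap5, an anchoring protein for protein kinase A, read 11.36 and 11.53 in Control, 11.47 and 11.45 in PC3 and 11.33 and 10.75 in LN4 lungs. LN4 replicate 3 lay 0.58 below the lowest of the other 5, which spanned 0.21. Rtkn2 read 10.05 and 10.42 in Control, 9.95 and 10.41 in PC3 and 10.11 and 9.71 in LN4 lungs. In the Control and PC3 groups the high-detection array was the higher one, so that the spread within these groups (SD 0.26 and 0.33) was larger than the difference between them. Hopx, a homeodomain-only cofactor that marks mature type 1 cells and is also expressed in cardiac muscle, read 9.88 and 10.11 in Control, 9.77 and 9.97 in PC3 and 10.08 and 9.94 in LN4 lungs. It had the narrowest range over the 6 arrays, 0.33, and its low lung was PC3 replicate 4. Sema3e, a secreted semaphorin that signals through plexin D1 on endothelium, read 9.36 and 9.41 in Control, 9.51 and 9.66 in PC3 and 9.36 and 8.84 in LN4 lungs. Its 3 groups did not overlap, in the order PC3, Control and LN4 from high to low, although LN4 replicate 1 lay only just under Control replicate 2.

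**Figure D1:**
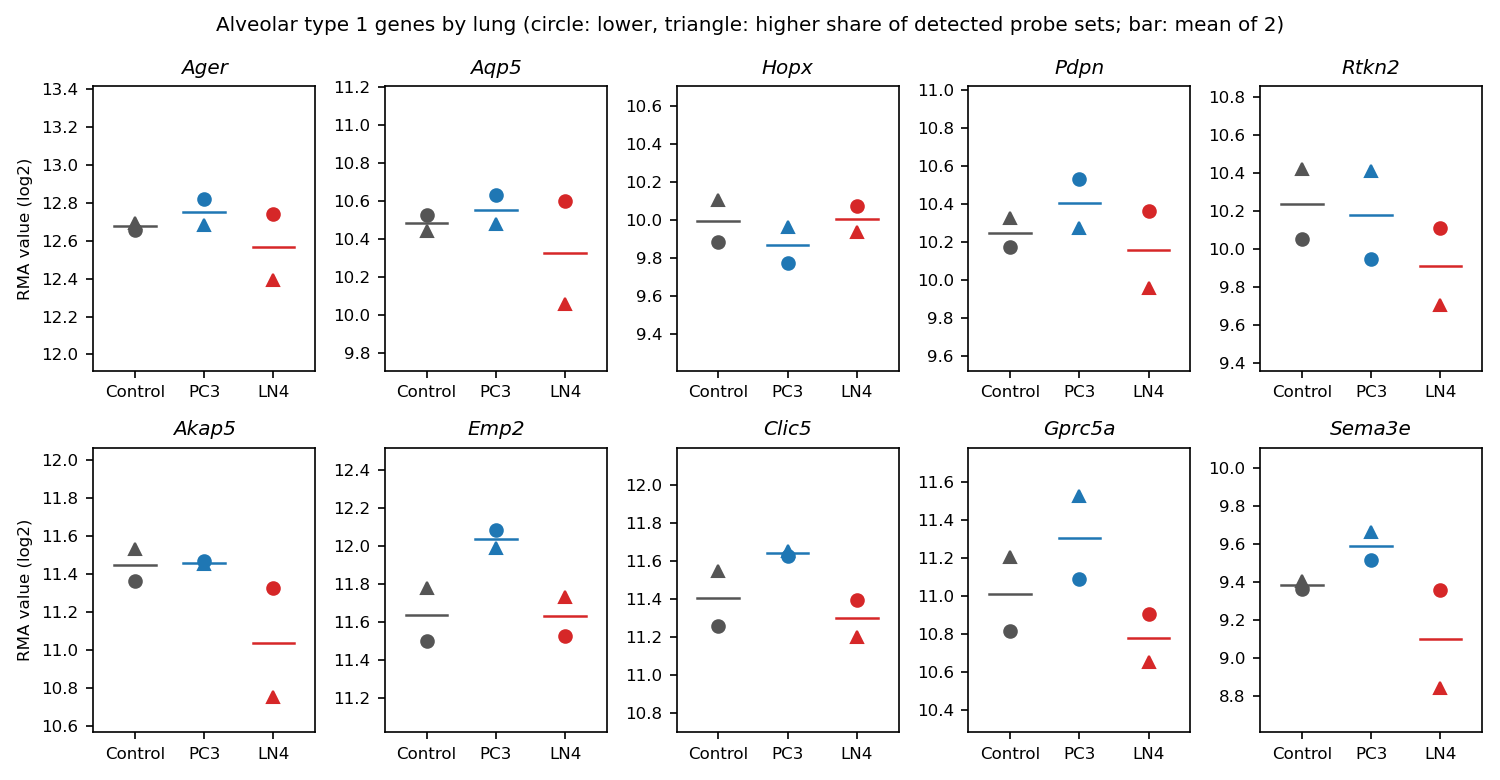
Log2 RMA value (vertical axis, 1.5 log2 units in every panel) of each of the 10 genes in the 6 lungs, by group on the horizontal axis. Circles are low-detection and triangles high-detection arrays, and bars are means of 2 lungs. The LN4 triangle, replicate 3, is the lowest point for 8 of the 10 genes.

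PC3 lungs were first set against Control lungs, for the effect of medium from the parental cancer cells on type 1 cell genes. Of the 10 members, 8 had higher means in PC3 than in Control lungs (53.4% of all probe sets did), and none passed limma's test with Benjamini-Hochberg adjustment over all 21330 probe sets, in which 0% were called. No member had an unadjusted p under 0.05, as had 2.24% of all probe sets. The median change was 0.12 against 0.02 over all probe sets. The members differed among themselves, with Emp2 and Gprc5a at the upper end and Hopx and Rtkn2 at the lower.

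The Emp2 level averaged 12.04 ± 0.06 in PC3 lungs against 11.64 ± 0.20 in Control (SD, n = 2). It was 1.32-fold higher, by 0.40 (SE 0.19) on the log2 scale, with a 95% interval from -0.06 to 0.85 (adjusted p = 1.00 in the limma fit). Gprc5a differed by 0.30 (SE 0.24), Clic5 by 0.24 (SE 0.19) and Sema3e by 0.20 (SE 0.22). Clic5, Emp2 and Sema3e were the 3 members with both PC3 arrays above both Control arrays, a pattern that 16.4% of all probe sets shared. At the other end, Hopx differed by -0.13 (SE 0.19) and Rtkn2 by -0.06 (SE 0.25). Ager differed by 0.08 (SE 0.19), with an interval from -0.38 to 0.53. For Akap5 the difference was 0.01 (SE 0.23), with a sign that turned to -0.014 when each array was centred on its median.

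Within arrays of like detection, the median of the members' PC3 minus Control differences was 0.16 in the low-detection pair and 0.01 in the high-detection pair, where 5 of the 10 members were lower. Over all probe sets these medians were 0.037 and -0.0040. Emp2 differed by 0.58 and 0.21 in these pairs, Clic5 by 0.37 and 0.11, Gprc5a by 0.28 and 0.32 and Sema3e by 0.15 and 0.25. These 4 members and Aqp5 were higher in both pairs, and Hopx and Rtkn2 lower in both. For Clic5, Emp2 and Sema3e this follows from both PC3 arrays lying above both Control arrays. Pdpn was higher by 0.36 in the low-detection pair and at -0.05 in the other. The Emp2 difference was 0.26 without Control replicate 2 and 0.54 without Control replicate 4. Without Control replicate 2 the Clic5 difference was 0.09, and without Control replicate 4 that of Hopx was -0.014. Without PC3 replicate 5 the differences of Gprc5a and Sema3e were 0.08 and 0.13, and without PC3 replicate 4 those of Pdpn and Ager were 0.03 and 0.0062.

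**Figure D2:**
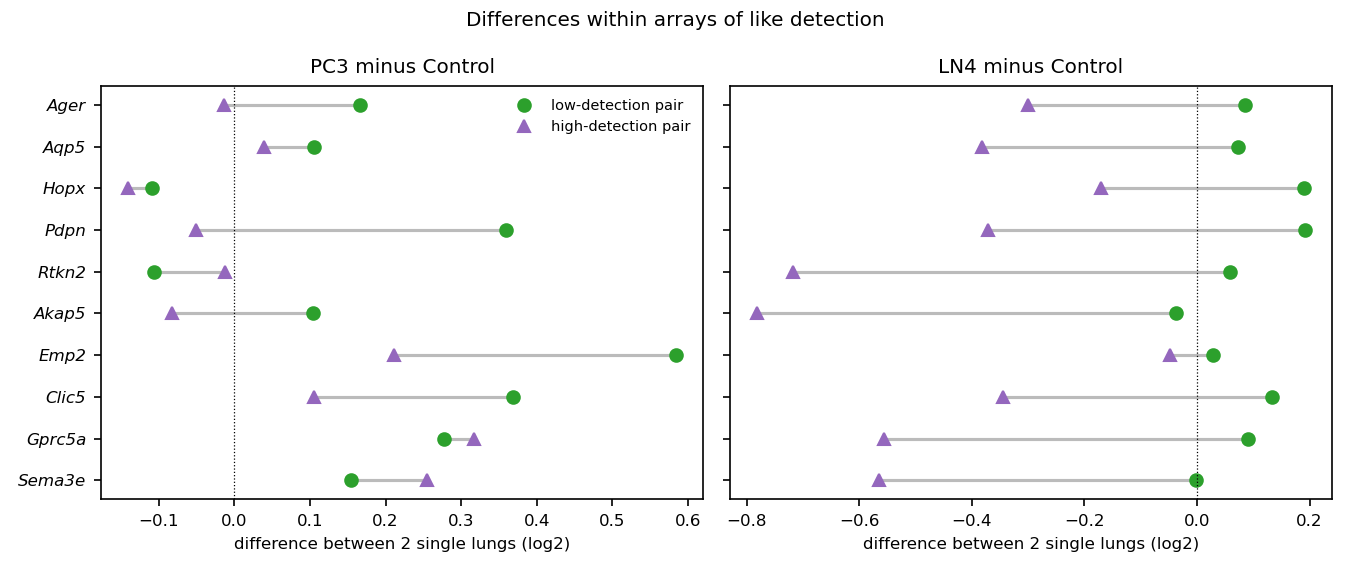
Difference between 2 single lungs (horizontal axis, log2) for each gene, PC3 minus Control on the left and LN4 minus Control on the right. Circles are the low-detection and triangles the high-detection arrays. On the right all 10 triangles lie below 0, from -0.78 to -0.05, while the circles lie between -0.04 and 0.19.

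Markers of mesothelium, the pleural lining that also contains Pdpn, moved along with the PC3 group. All 6 of 6 had higher means in PC3 lungs, with a median change of 0.96 (1.37 in the low- and 0.50 in the high-detection pair). The mean level of the list was 9.62 and 8.91 in PC3 lungs, 8.34 and 8.52 in Control and 8.64 and 8.75 in LN4 lungs, so the ranges of the PC3 and Control groups did not overlap. Upk3b, a uroplakin of mesothelium, differed by 0.98 (SE 0.28) and Gpm6a, a neuronal and mesothelial membrane glycoprotein, by 0.94 (SE 0.24), and neither passed over all probe sets (adjusted p = 1.00 in the limma fit). Lymphatic endothelial genes, another source of Pdpn, had a median change of 0.08, with 2 of 6 lower. The part of these cells in the differences of the members was not tested.

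LN4 lungs were then set against Control lungs, for the effect of the medium of the more metastatic cells. Of the 10 members, 9 had lower means in LN4 than in Control lungs (53.1% of all probe sets did) and none passed the limma test, in which 0% of all probe sets were called, with none of the members under an unadjusted p of 0.05 against 2.05% of all. The median change was -0.13 against -0.02 over all probe sets. The Akap5 level averaged 11.04 ± 0.41 in LN4 lungs against 11.45 ± 0.12 in Control (SD, n = 2), and it differed by -0.41 (SE 0.23) with an interval from -0.96 to 0.14 (adjusted p = 1.00 in the limma fit). Rtkn2 differed by -0.33 (SE 0.25), Sema3e by -0.28 (SE 0.22) and Gprc5a by -0.23 (SE 0.24). Akap5 and Sema3e were the 2 members whose LN4 arrays both lay below both Control arrays, as did 16.9% of all probe sets.

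The lower means rested for most members on LN4 replicate 3. Its values were below those of LN4 replicate 1 for 9 of the 10 members, with a median difference of -0.38, while 58.7% of all probe sets were lower with a median of -0.10. Emp2 was the member that lay higher, by 0.21. LN4 replicate 3 was the lowest of the 6 arrays for 8 of the 10 members, against 28.7% of all probe sets. In LN4 replicate 1, by contrast, the median deviation of the members from the Control mean was -0.02, with 4 of the 10 above it. Between the low-detection arrays the median LN4 minus Control difference was 0.08, against -0.38 in the high-detection pair, with 10 of 10 lower. Over all probe sets these medians were 0.015 and -0.052. Without LN4 replicate 3 the differences of Ager, Aqp5 and Pdpn turned to 0.065, 0.12 and 0.11, and those of Akap5 and Rtkn2 shrank to -0.12 and -0.13, that of Gprc5a to -0.11 and that of Sema3e to -0.025.

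Several other lists of lung cells were low on the same array, and some were not. Type 2 cell genes had a median of -0.22 for LN4 replicate 3 minus LN4 replicate 1 and were lowest of the 6 arrays there for 7 of 10, capillary endothelial genes -0.28 and 7 of 10, club and ciliated airway genes -1.09 and 7 of 8, and fibroblast genes -0.54 and 7 of 8. Mesothelial genes had a median of 0.23 and lymphatic endothelial genes one of -0.14 with 3 of 6 lower, and in both lists 0 of 6 genes were lowest there. Apart from Lyve1 and Ccl21a, which differed by 0.06 and -0.47, the lymphatic genes lay at background by their means. Among type 2 genes, Sftpc read 13.91 in LN4 replicate 1 and 13.87 in LN4 replicate 3, and Sftpa1, a surfactant protein as well, 13.49 and 13.30. Cdh5, the cadherin of endothelial junctions, read 10.53 and 10.00, but Cldn5, the next brightest capillary gene, 10.24 and 10.15. Of the 10 capillary genes, 8 were lower in LN4 replicate 3 than in LN4 replicate 1. Against this, skeletal muscle genes differed by a median of 4.49 and squamous epithelium genes by 6.44, with Krt13 at 5.09 in LN4 replicate 1 and 13.61 in LN4 replicate 3. The part of this other tissue RNA in the lower values of the members was not tested. In LN4 replicate 1 the mean level of the squamous list was 5.15, against 5.03 and 4.97 in Control lungs, and that of the muscle list 5.97, against 5.98 and 5.78. Type 2 genes also lay under the Control mean in LN4 replicate 1, by a median of -0.22, where the type 1 members were at -0.02. The difference between these medians was not tested.

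**Figure D3:**
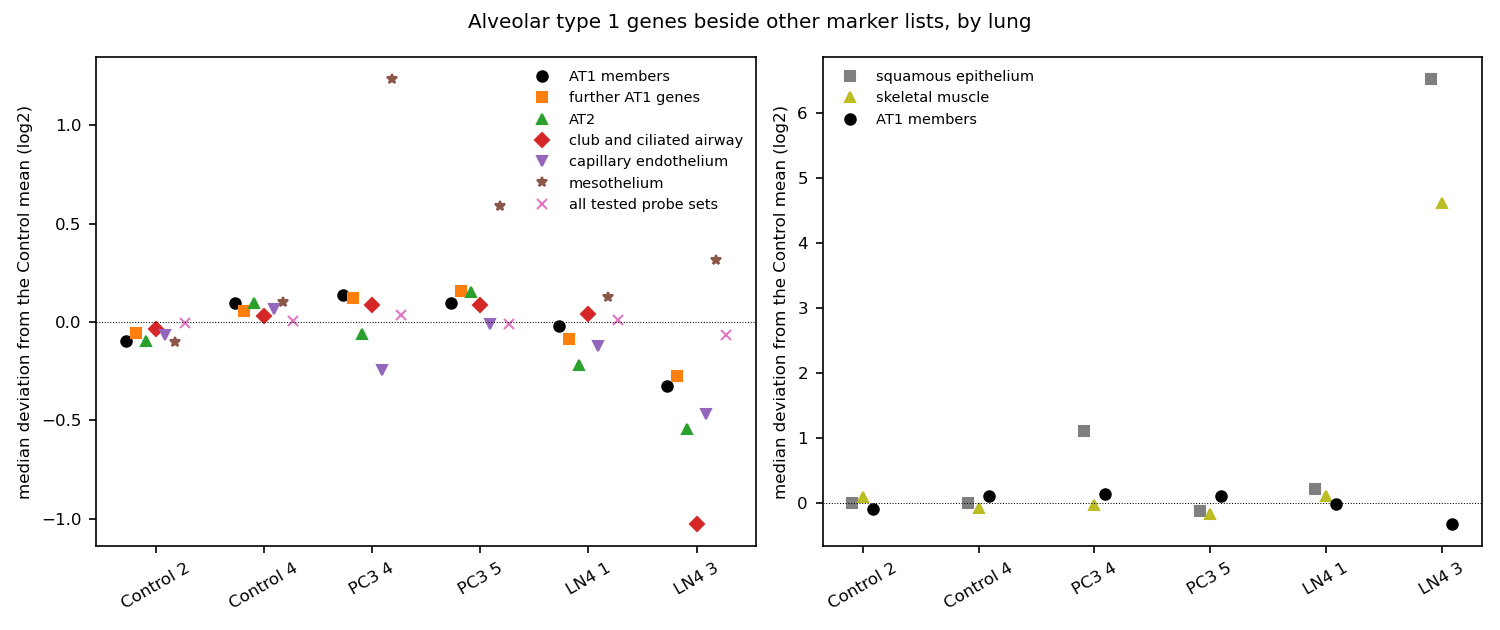
Median deviation from the Control mean (vertical axis, log2) of the type 1 members and other marker lists in each of the 6 lungs (horizontal axis). On the left the type 1 members lie between -0.10 and 0.14 in 5 lungs and at -0.33 in LN4 replicate 3, and mesothelial genes reach 1.23 in PC3 replicate 4. On the right squamous genes reach 6.51 and muscle genes 4.61 in LN4 replicate 3.

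The third comparison set LN4 against PC3 lungs. It shares arrays with both comparisons above, so its values follow from theirs. Of the 10 members 9 had lower means in LN4 lungs, as had 52.2% of all probe sets, with a median of -0.31 against -0.01 over all probe sets, and none passed (0% of all probe sets called, smallest adjusted p of the members 0.842 in the limma fit). No member had an unadjusted p under 0.05, against 5.13% of all. Both LN4 arrays lay below both PC3 arrays for 5 of the 10, Akap5, Clic5, Emp2, Gprc5a and Sema3e, a pattern found for 18.1% of all probe sets.

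Gprc5a was at 10.78 ± 0.18 in LN4 and 11.31 ± 0.31 in PC3 lungs (SD, n = 2), a difference of -0.53 (SE 0.24) with an interval from -1.09 to 0.035, and Sema3e differed by -0.49 (SE 0.22). Akap5 differed by -0.42 (SE 0.23), Emp2 by -0.41 (SE 0.19) and Clic5 by -0.34 (SE 0.19). Of the 10 members, 8 were lower in both detection pairs. For the 5 just named this follows from both LN4 arrays lying below both PC3 arrays. Emp2 differed by -0.56 in the low- and -0.26 in the high-detection pair, Clic5 by -0.24 and -0.45, and Gprc5a by -0.19 and -0.87. Without LN4 replicate 3 the median of the members was -0.10. Akap5, at -0.42 with that array, was then at -0.13, Sema3e at -0.23, Clic5 at -0.25, Gprc5a at -0.40 and Emp2 at -0.51. With both arrays that held squamous genes left out (LN4 replicate 3, PC3 replicate 4), 1 LN4 lung was set against 1 PC3 lung. Gprc5a was then at -0.62 and Emp2 at -0.46, while Ager, Aqp5 and Pdpn were at 0.058, 0.12 and 0.088. Hopx was the member with the higher LN4 mean, by 0.14 (SE 0.19), and by 0.20 without LN4 replicate 3.

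Genes of other lung cells were also lower in LN4 than in PC3 lungs by their means. Type 2 cell genes were lower for 10 of 10 with a median of -0.40, capillary endothelial genes for 10 of 10 with -0.13, club and ciliated airway genes for 8 of 8 with -0.37, and fibroblast genes for 6 of 8 with -0.39. Mesothelial genes were lower for 5 of 6 with a median of -0.69. Before adjustment, limma p-values were below 0.05 for 4 mesothelial, 2 type 2, 1 capillary, 1 airway and 0 fibroblast genes. None of these genes passed the limma test over all probe sets. Lymphatic endothelial genes were higher for 5 of 6, with a median of 0.09. Of that list only Lyve1, at -0.17, and Ccl21a, at 0.19, had means above background. Between the low-detection arrays, which leave out LN4 replicate 3, the medians were -0.15 for the type 1 members, -0.16 for type 2, -0.03 for fibroblast, -0.0073 for airway, 0.02 for capillary and -1.04 for mesothelial genes. The part of these cells in the members' differences was not tested.

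**Figure D4:**
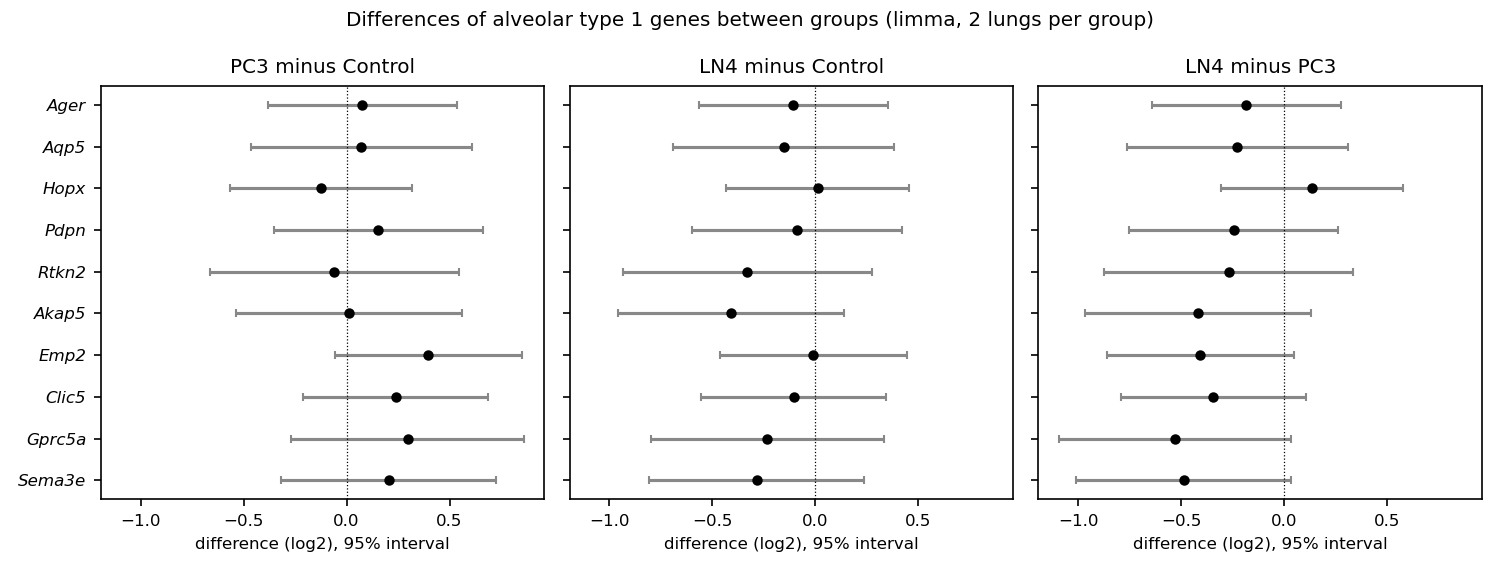
Difference between group means (horizontal axis, log2) of each gene in the 3 comparisons, with the 95% interval of the limma fit over 6 arrays. All 30 intervals include 0, and the estimates run from -0.53 for Gprc5a in LN4 minus PC3 to 0.40 for Emp2 in PC3 minus Control.

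The members did not share 1 profile. Over the 6 arrays, Pearson's r of a member with the mean of the other 9 was highest for Sema3e, 0.94, Clic5, 0.91, and Akap5, 0.90, and lowest for Emp2, 0.40, and Hopx, 0.02. On the 5 arrays without LN4 replicate 3, it was 0.97 for Clic5, 0.86 for Gprc5a and 0.79 for Emp2, but 0.23 for Ager and -0.34 for Aqp5. These points share their arrays, their detection class and the lung that stands apart, so they describe these lungs only. Among 12025 probe sets of other genes with a range of at least 0.5, the profiles most like the members' mean belonged to Adam28, a membrane metalloprotease-disintegrin, Iqub, Osbpl3, an oxysterol-binding protein, Kidins220 and Spib, a transcription factor of B cells. Their r over the 6 arrays lay between 0.996 and 0.998. Spib and Iqub were near the background, below the negative control limit given above on some or all arrays.

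Of 16 further type 1 genes, 14 had higher means in PC3 than in Control lungs (median 0.17), against 53.4% of all probe sets. Lower means in LN4 than in Control lungs were found for 13 (median -0.13), against 53.1%. Lower means in LN4 than in PC3 lungs were found for 14 (median -0.28), against 52.2%. LN4 replicate 3 was the lowest of the 6 arrays for 11 of the 16, against 28.7% of all probe sets. None passed in any comparison. In LN4 minus PC3, 2 of the 16 had a limma p under 0.05 before adjustment, against 5.13% of all probe sets. In LN4 replicate 1 alone their median deviation from the Control mean was -0.09. Cldn18, the claudin of alveolar tight junctions, read 11.76 and 11.85 in Control, 12.10 and 12.23 in PC3 and 11.65 and 11.40 in LN4 lungs. Its groups did not overlap (the shares of all probe sets are given with Sema3e above). It differed by 0.36 (SE 0.18) between PC3 and Control lungs and by -0.64 (SE 0.18) between LN4 and PC3 lungs. Pmp22, a tetraspan protein of the same family as Emp2, read 11.07 and 11.38 in Control, 11.82 and 11.46 in PC3 and 11.07 and 11.22 in LN4 lungs. Its PC3 lungs were the highest 2 of the 6, the order seen for Emp2.

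Regulators of the alveolar epithelium had 9 of 10 lower means in LN4 than in Control lungs, against 53.1% of all probe sets. Their median was -0.16 there and 0.05 in PC3 minus Control, and none passed. In LN4 replicate 1 alone their median deviation from the Control mean was -0.07, against -0.28 in LN4 replicate 3. LN4 replicate 3 lay below LN4 replicate 1 for 6 of the 10, and 1 of the 10 was highest there of the 6 arrays. Tead1, a DNA-binding partner of YAP and TAZ, read 9.97 and 10.06 in Control, 10.05 and 10.09 in PC3 and 9.97 and 9.71 in LN4 lungs. Etv5, a transcription factor that maintains type 2 cells, read 9.31 and 8.86 in LN4 lungs against 9.50 and 9.60 in Control lungs. Genes of transitional alveolar epithelium, an intermediate between type 2 and type 1 cells, had a median of 0.22 in PC3 minus Control with 2 of 8 lower, and none passed. The keratin Krt8 read 10.47 and 10.82 in Control, 11.09 and 11.07 in PC3 and 10.68 and 10.03 in LN4 lungs, and Krt19, also a keratin of mesothelium, differed by 0.48 (SE 0.20) between PC3 and Control lungs. On LN4 replicate 3, where squamous and muscle genes were highest, this list split, since 4 of the 8 were lowest and the other 4 highest there. Its median deviation from the Control mean was 0.0015 in LN4 replicate 1 and 0.24 in LN4 replicate 3. The part of the squamous tissue RNA in these values was not tested.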

How the data were processed

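RNA of 6 minced lungs was purified on columns, and 10 ug of each was turned into biotinylated cRNA for Affymetrix MoGene 1.0 ST arrays, per the labels' protocols and file headers. The deposited log2 values were made with RMA, per the submitters' processing notes. This method subtracts background, makes array distributions alike and combines probes into 1 value, so the arrays are not processed independently. Its version is not given in the sources used. Arrays have no read depth. The authors' chip report gives, per the file headers, the percent of exon-level probe sets that were detected. The intensity columns, fraction (area under a curve of control probe sets) and score columns, per the file headers, were read but decided nothing here.

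From 35556 probe sets, 7116 controls were left out, then the dimmest 25% by mean level. Symbols were updated through the RefSeq table of GRCm38.p6, and the 110 entries of 12 marker lists were all measured, 109 tested. Itgb6 is an entry of both the further type 1 and the transitional list. Groups came from the titles. All 6 arrays entered 1 limma fit (R 4.3.3, limma 3.58.1) with 3 group means, default empirical Bayes moderation (3.88 prior and 3 residual degrees of freedom) and two-sided tests, adjusted by Benjamini-Hochberg over all tested probe sets at 0.05. An F test over the 3 groups called 0 probe sets as well, with 534 at an unadjusted p under 0.05. p-values measure the spread between 2 mice a group, pooled over groups, and the gap between the LN4 lungs enters every SE. Named besides the members were the 2 brightest genes of each list, chosen without regard to change, and the 5 most like profiles; not all are printed, and Krt13, Cdh5, Krt8, Krt19 and the others printed follow this rule. Members and lists were chosen with earlier results of these data known. Alternatives were no or a stricter filter, a detection block, array weights, trended and robust moderation, centring of arrays, the mean of a gene's probe sets, and leaving out arrays. Figures used Python 3.11.15 with matplotlib 3.10.9.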

Additional observations from a re-analysis of the deposited data

How the results depend on the processing

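In 14 alternatives, the 30 differences of members gave 420 values, of which 0 passed the limma test at 0.05 and 398 kept their direction. The smallest adjusted p of a member was 0.0783, without LN4 3 and PC3 4, and 0.129 without LN4 replicate 1. No filter, the stricter filter, the detection block, array weights, trended moderation and the mean of all probe sets could not turn a member's direction. Every member had 1 probe set, the block was balanced over the groups and the weights were equal within a group. These settings therefore repeat the main differences and alter only their SE, and their share of the 398 values is no check of direction. Centring the arrays turned Akap5 in PC3 minus Control to -0.014. Without LN4 3 and PC3 4, which leaves 1 array in these groups, PC3 minus Control was -0.0041 for Aqp5 and 0.17 for Rtkn2, LN4 minus Control was 0.065 for Ager, 0.12 for Aqp5 and 0.11 for Pdpn, and LN4 minus PC3 was 0.058 for Ager, 0.12 for Aqp5 and 0.088 for Pdpn. The count of all probe sets called was then 514, 200 and 2593 in the 3 comparisons, against 0 in the fit of 6 arrays, with 0 members among them; the spread then comes from the Control pair alone.

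Leaving out 1 array at a time, with the lone array of a group assumed to vary like the others, all probe sets called ranged from 0 to 853 in LN4 minus Control and from 0 to 715 in LN4 minus PC3, both highest without LN4 replicate 1. The members' median ranged from 0.09 to 0.18 in PC3 minus Control, from -0.33 to -0.018 in LN4 minus Control and from -0.46 to -0.10 in LN4 minus PC3, the last 2 ranges running from the fit without LN4 replicate 1 to that without LN4 replicate 3. Members with a lower mean numbered 1 to 3, 6 to 10 and 8 to 9 in the same order. PC3 minus Control ranged from -0.0041 to 0.15 for Aqp5, -0.29 to 0.17 for Rtkn2 and -0.074 to 0.095 for Akap5. LN4 minus Control ranged from -0.28 to 0.065 for Ager, -0.43 to 0.12 for Aqp5, -0.10 to 0.12 for Hopx, -0.29 to 0.11 for Pdpn, -0.15 to 0.13 for Emp2 and -0.25 to 0.038 for Clic5, and LN4 minus PC3 from -0.50 to 0.044 for Aqp5. Beyond the construction of these fits, the cause was not tested. No paired analysis was possible because the groups share at most 1 replicate number, so the labels pair no mice. The detection block joins arrays of like detection instead; with it 0 probe sets passed in each comparison.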
